A study of Mus musculus with 3 samples.

Results

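The testis-specific serine kinases (TSSK) are a small family of protein kinases made almost solely in the testis, and TSKS is a protein that several of them bind and phosphorylate. The genes described here are Tssk1, Tssk2, Tssk3, Tssk4, Tssk6 and Tsks, taken by symbol from the gene rows of the count files, where all 6 were found among 32285 genes. The study measured single-cell 3′ RNA libraries of adult mouse testis, strain C57BL/6N, in which each messenger RNA is counted once by its unique molecular identifier (UMI). The controls were 2 wildtype mice with 1 library each (wildtype replicates 1 and 2), and a single library, pooled from 2 mice, came from testes with a conditional Tex10 knockout (the knockout library). Tex10 encodes a nuclear protein known from ribosome assembly and from the pluripotency network of stem cells. The Cre driver, the deleted exons and the ages of the mice are not given in the sources used here. With 1 knockout library no test between genotypes was possible, so knockout values are descriptions of 1 pool set against 2 mice.

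TSSK kinases belong to the calcium/calmodulin-dependent kinase group and resemble AMP-activated protein kinase. They act after meiosis, while the round spermatid is reshaped into a sperm cell with a condensed nucleus and a tail. TSSK1 and TSSK2 bind TSKS in a ring-shaped structure near the forming tail, TSSK4 binds the tail protein ODF2, and TSSK6 is needed for normal packing of the sperm nucleus. Male mice without Tssk1 and Tssk2, or without Tssk6, are infertile.

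All 6 genes are annotated as protein-coding on GRCm38 in GENCODE M21. Tssk1 lies at chr16:17894223-17897922 and Tssk2 at chr16:17898637-17900024, both on the plus strand with a gap of 714 bases between them. Tssk3 lies at chr4:129489014-129491022 on the minus strand, Tssk4 at chr14:55650184-55652539, Tssk6 at chr8:69902184-69903518 and Tsks at chr7:44943204-44958035, the last 3 on the plus strand. Tssk1, Tssk2 and Tssk6 each consist of a single exon, and the coding sequences run from 268 codons in Tssk3 to 365 in Tssk1 among the kinases and to 585 in Tsks. The coding sequences of Tssk1 and Tssk2 were 81.3% identical over 1050 aligned bases, whereas the other pairs of the 5 kinases lay between 59.7% and 66.0%. No word of 31 bases in the last 500 bases of any of their transcripts occurred in a transcript of another gene, so the 3′ reads of the kinases could be told apart. Tssk6 shares 375 exon bases (28.1% of its own) with Ndufa13 on the opposite strand, and Tssk1 shares 63 with Dgcr2. Whether counting used the strand is not given in the sources used here, so reads in the shared bases could be assigned to either gene. Those of Tssk6 lie at its 5′ end, up to base 69902558, whereas these are 3′ libraries. The reads in the shared bases were not counted apart.

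Because Tssk1 and Tssk2 are neighbours whose profiles part during spermatid development, the 70 bases before their RefSeq start sites (GRCm38.p6, plus strand, 5′ to 3′) are shown with those of Tssk4, which falls earliest. Capitals mark the word TGACTTCA on either strand, which was picked after these sequences were seen.
Tssk1, chr16:17894133-17894202: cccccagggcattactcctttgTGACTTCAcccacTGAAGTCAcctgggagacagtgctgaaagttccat
Tssk2, chr16:17898567-17898636: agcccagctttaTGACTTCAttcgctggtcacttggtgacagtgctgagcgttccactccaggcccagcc
Tssk4, chr14:55650114-55650183: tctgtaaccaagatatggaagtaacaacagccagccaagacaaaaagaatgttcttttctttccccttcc
The word lies at positions -48 to -41 on the plus strand and -35 to -28 on the minus strand of Tssk1, counted from the base before the start site, and at -58 to -51 of Tssk2. It was found in 0.408% of 32851 promoter windows of 70 bases, and in no such window of the other 4 genes. The windows of Tssk1 and Tssk2 were 80.7% identical over 57 aligned bases, with a longest shared run of 11 bases, GACAGTGCTGA. The alignment allowed gaps, and the other pairs of the 6 genes ran from 38.7% to 70.2%, the latter for Tssk1 with Tssk6. Tssk1 and Tsks shared a run of 10 bases. Of 4 known promoter words searched on both strands in the 250 bases before the start, the cAMP response element TGACGTCA and the TATA word TATAAA were found in none of the 6 genes, the half-site TGACG in Tssk6 alone and CCAAT in Tssk3 and Tssk4. These words occurred in 1.55%, 12.4%, 17.8% and 33.8% of all promoter windows of that length. A match describes letters only, and a missing word says nothing of a factor.

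The libraries held 93418341, 96001773 and 147783171 UMIs in 9967, 10153 and 12918 barcodes (wildtype replicate 1, wildtype replicate 2, knockout library; values are given in this order throughout). After filtering, 26307 barcodes were kept, of which 54.9%, 40.1% and 64.4% fell into clusters of few UMIs that were kept out of the named cell classes. Clusters named round or elongating spermatids from marker genes held 1767, 2552 and 2185 cells with a median of 12330, 10412 and 18970 UMIs. Library pairs shared 27 to 30 deposited barcodes. The targeted gene Tex10 stood at 142, 124 and 131 CPM (UMIs of a gene scaled to a total of 1000000) in spermatogonia, at 59.1, 57.3 and 50.5 CPM in late spermatocytes and at 18.3, 21.2 and 12.9 CPM in round spermatids. Since the deleted exons are not known here, these 3′ counts do not check the deletion.

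The spermatids were ordered along a diffusion pseudotime computed without the 6 genes and divided into 8 bins, from bin 1, the earliest of the cells named round spermatids, to bin 8, the latest of those named elongating. An unnamed cluster led by 1700001F09Rik, which held round-spermatid markers and is described further on, was kept out of this order; whether its cells come before bin 1 was not tested, so bin 1 need not be the onset of a gene. Round spermatids made up all cells of bin 1 and 86.6% to 87.7% of the cells of bin 2. The later bins held elongating spermatids only. The summed level of 15 elongating-spermatid markers rose from 11947 to 12512 CPM in bin 1 to 293123 to 312504 CPM in bin 4, and that of 13 round-spermatid markers fell from 6422 to 6734 CPM to 591 to 661 CPM. Since 1 UMI stands for 1 captured 3′ end whatever the transcript's length, CPM was not corrected for length. Other differences in capture between genes were not checked, so levels of different genes are compared as counted. CPM is a share of all UMIs, and the median UMIs per cell were 31226, 24390.5 and 41142 in bin 1. In bin 8 they were 7571, 6892.5 and 11150, so a rise in CPM need not be a rise in UMIs per cell. Exact Poisson intervals at 95% are drawn in the plot of levels and cover counting error only.

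**Figure D1:**
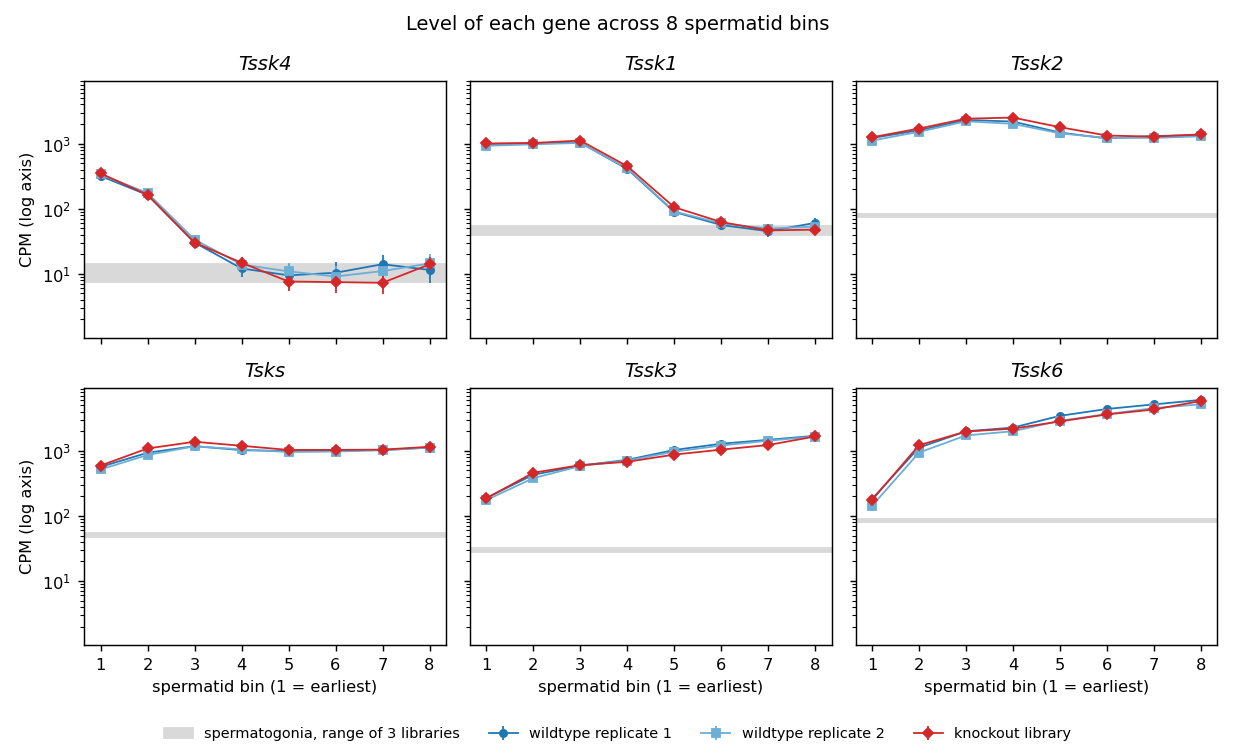
Level of each gene (CPM, log axis) in 8 spermatid bins, 1 line per library, with exact 95% Poisson intervals of the UMI counts; the grey band is the range of the same gene over the 3 libraries in spermatogonia. Tssk4 and Tssk1 fall to the grey band or close to it, Tssk2 and Tsks stay far above it throughout, and Tssk3 and Tssk6 climb to their highest level in bin 8.

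In CPM, the 6 genes followed 3 courses. Tssk4 and Tssk1 were high in round spermatids and were lost during elongation. Tssk2 and Tsks were read from the first bin to the last, with their highest wildtype mean in bin 3. Tssk3 and Tssk6 rose from the first bin to the last. The stage centre, the mean bin number weighted by a gene's CPM, put the 6 genes in the order Tssk4 at 1.90 ± 0.00823, Tssk1 at 2.54 ± 0.0230, Tssk2 at 4.33 ± 0.0169, Tsks at 4.76 ± 0.0265, Tssk3 at 5.74 ± 0.0166 and Tssk6 at 5.92 ± 0.00541 (mean ± SD, n = 2 wildtype libraries). Each step between neighbours in this order was larger than the SD of either gene, and the span from first to last was 4.02 ± 0.0136 bins. Over the 3797 genes that reached 50 CPM in spermatids, the median centre was 3.16 and 90% of genes lay between 1.96 and 5.36. Tssk6 was later than 99.8% of these genes and Tssk3 later than 99.0%, while Tssk4 was later than 3.24% of them.

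Tssk4, the kinase that binds ODF2, was the first of the 6 to disappear. In bin 1 it stood at 318, 337 and 349.8 CPM, in bin 2 at 163, 175 and 164 CPM and in bin 3 at 30.2, 33.6 and 30.3 CPM. From bin 4 to bin 8 it lay between 7.29 and 14.8 CPM, in all 3 libraries near its level in spermatogonia (7.60, 13.9 and 13.8 CPM). The wildtype mean fell from 328 ± 13.6 CPM in bin 1 to 13.0 ± 1.26 CPM in bin 4 (SD, n = 2). With 16 bins in place of 8, the fall was placed between the third and the fourth bin, from 207, 224 and 224 CPM to 64.7, 50.7 and 66.5 CPM.

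Measured in CPM, Tssk1 stayed within 926 to 1115 through bins 1 to 3 and then dropped. Its UMIs per cell were already lower in bin 3 than in bin 1 in all 3 libraries. They were 32.3, 22.3 and 45.9 in bin 1 and 26.75, 22.1 and 40.5 in bin 2. Bin 3 held 17.1, 16.98 and 24.997 UMIs of Tssk1 per cell, and bin 4 held 6.49, 5.19 and 10.83. Tssk1 stood at 985, 926 and 1005 CPM in bin 1 and at 1031, 1027 and 1115 CPM in bin 3. In bin 4 it was at 409, 417 and 450.0 CPM, in bin 5 at 89.1, 90.9 and 105 CPM and in bin 7 at 45.1, 49.7 and 46.5 CPM. The wildtype means of bins 1 and 2, 956 ± 41.8 and 995 ± 28.4 CPM, differed by less than the SD, and the fall from bin 3 to bin 4, from 1029 ± 2.65 to 413 ± 6.04 CPM, was far beyond it. Its level in bins 6 to 8, 45.1 to 62.5 CPM, was close to the 38.9 to 53.4 CPM of spermatogonia.

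Tssk2, the neighbour of Tssk1, was at 1221, 1115 and 1252 CPM in bin 1, where Tssk1 was lower in each library. It climbed to 2311, 2202 and 2418 CPM in bin 3, stood at 2182, 2011 and 2511 CPM in bin 4, and was still at 1356, 1294 and 1387 CPM in bin 8. All libraries therefore showed it at every stage of the ordered spermatids. In UMIs per cell Tssk2 stood at 40.0, 26.8 and 57.2 in bin 1 and at 42.1, 34.4 and 67.5 in bin 2. Bin 3 held 38.3, 36.4 and 54.2 UMIs per cell, and bin 8 held 11.7, 10.4 and 17.3. The climb to bin 3 was thus a rise in UMIs per cell in wildtype replicate 2 only. In CPM the highest bin of Tssk2 was at most 2.01 times its lowest in each library, whereas that of Tssk1 was 20.7 to 24.0 times. The ratio of the 2 neighbours thus moved from near equal in bin 1 to Tssk2 far above Tssk1 in bin 8.

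Tsks, the substrate of TSSK1 and TSSK2, rose in CPM to bin 3, fell to bin 5 and rose again in bin 8. It was at 566, 517 and 593 CPM in bin 1, 1178, 1174 and 1377 CPM in bin 3 and 1120.0, 1122 and 1153 CPM in bin 8. In bin 5 it was at 988, 957 and 1031 CPM. The wildtype mean fell from 1176 ± 2.78 CPM in bin 3 to 1038 ± 21.0 in bin 4 and 973 ± 21.8 in bin 5, each step beyond the SD and shared by all 3 libraries. An SD of 2 libraries can be smaller than counting error. In wildtype replicate 1 the Poisson intervals of bins 4 and 5, 991 to 1056 and 949 to 1028 CPM, overlapped. The means of bins 5, 6 and 7, the latter 995 ± 30.3 and 1023 ± 7.62 CPM, did not differ from bin to bin beyond the SD, and the rise to 1121 ± 1.64 CPM in bin 8 did. Over all bins the highest CPM was 2.08, 2.27 and 2.32 times the lowest, which was bin 1 in each library. In UMIs per cell Tsks stood at 18.6, 12.5 and 27.0 in bin 1 and at 24.6, 19.5 and 43.0 in bin 2. By the same measure it stood at 10.4, 8.32 and 15.5 in bin 7 and at 9.66, 9.02 and 14.4 in bin 8.

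In CPM, Tssk3 rose in every step in all 3 libraries. It was at 189, 175 and 186 CPM in bin 1, 727, 709 and 677 CPM in bin 4 and 1701, 1658 and 1661 CPM in bin 8. That was 9.01, 9.46 and 8.92 times the CPM of bin 1. In UMIs per cell Tssk3 stood at 6.18, 4.22 and 8.50 in bin 1 and at 11.3, 8.61 and 18.2 in bin 2. Bin 3 held 9.83, 9.63 and 13.5 UMIs per cell, and bin 8 held 14.7, 13.3 and 20.7. The knockout library lay between the wildtype libraries in bins 1 and 8, above both in bins 2 and 3 and below both in bins 4 to 7.

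Tssk6, the kinase of nuclear packing, had the largest rise of the 6. It was at 182, 143 and 176 CPM in bin 1, at 1119.8, 939 and 1219 CPM in bin 2 and at 6053, 5186 and 5823 CPM in bin 8. In CPM the last bin was 33.3, 36.3 and 33.2 times the first. In UMIs per cell Tssk6 went from 5.96, 3.44 and 8.01 in bin 1 to 52.2, 41.7 and 72.7 in bin 8. Within bin 1 it was still rising. With 16 bins it stood at 80.2, 63.1 and 62.4 CPM in the first, in CPM no higher than in spermatogonia (81.0, 88.8 and 86.6 CPM). The second held 264, 224 and 307 CPM and the third 899, 739 and 927 CPM. In UMIs per cell the first of the 16 bins held 2.69, 1.498 and 2.85 of Tssk6, against 0.973, 0.856 and 1.39 in spermatogonia. Its cells were deeper, with medians of 30694.5, 23321 and 40431 UMIs against 11270, 8447 and 14674. Whether Tssk6 in that first bin was above the level of free RNA was not tested.

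**Figure D2:**
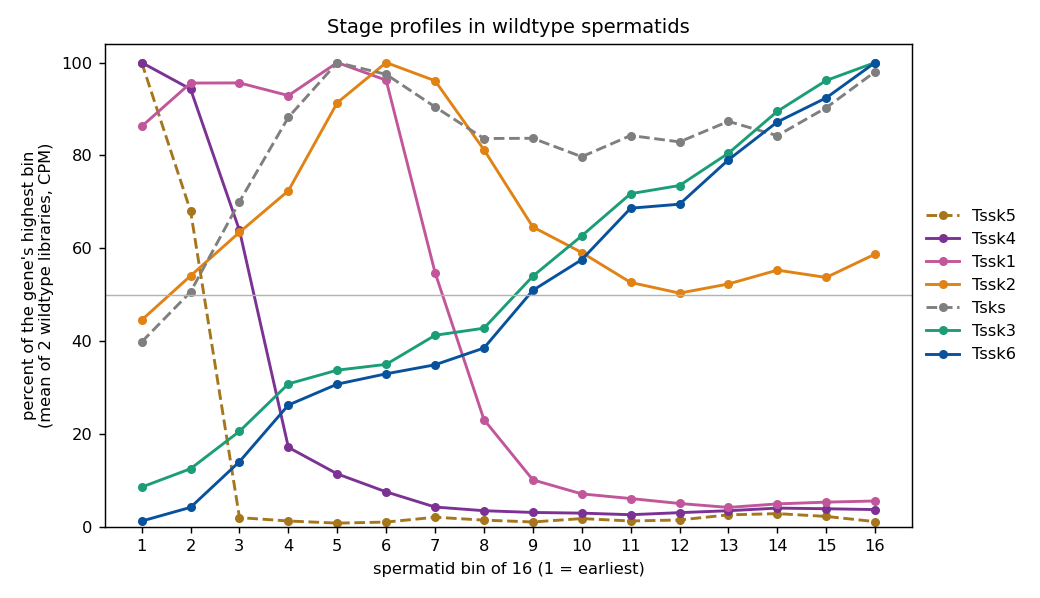
Profiles over 16 spermatid bins, each as a percent of the gene's own highest bin (mean CPM of the 2 wildtype libraries); the grey line marks 50 percent. Tssk5 is at its highest in bin 1 and Tssk4 drops below the line between bins 3 and 4, Tssk1 drops below it between bins 7 and 8, and Tssk3 and Tssk6 cross it upwards at bin 9.

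The early and the late genes crossed in the middle of the order. In wildtype replicate 1, Tssk1 was at or above 50 percent of its own maximum in the first 7 of the 16 bins and Tssk6 in the last 7, from bin 10 on. Tssk6 passed that mark in bin 9 in wildtype replicate 2 and in bin 11 in the knockout library. Tssk3 passed it in bins 9, 9 and 10.

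Messenger RNA that leaks from broken cells is captured in every droplet, so low levels outside spermatids need a yardstick. Prm1, a protamine made in spermatids, served for it: a gene read only from free RNA keeps 1 ratio to Prm1 in every cell type. In spermatogonia, early and late spermatocytes, peritubular myoid cells and a cluster led by Piwil1 that took no name because its leading genes held a marker of another class than its best list, Tssk1 gave 17.8 to 30.2 UMIs per 1000 Prm1 UMIs over the 15 values, Tssk2 25.2 to 44.2 and Tssk6 22.9 to 52.6. Tsks gave 19.6 to 32.0, Tssk3 8.44 to 18.1 and Tssk4, with the fewest UMIs, 2.54 to 7.14. These ranges pool germ cells before the spermatid stage with the somatic myoid cells, and the groups were not all alike. Tssk1 gave 30.2, 26.0 and 27.5 in late spermatocytes against 21.3, 22.9 and 23.0 in myoid cells. Tssk2 gave 32.8, 25.2 and 34.8 in late spermatocytes against 43.2, 44.2 and 43.8 in myoid cells.

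A further cluster led by 1700001F09Rik (377, 521 and 298 cells) stood apart from that yardstick. It took no name, because its best-fitting list, that of late spermatocytes, scored 0.601 on a scale where 1 was asked for, while it held 301, 363 and 355 CPM of the acrosome marker Acrv1 and 11 of 13 round-spermatid markers in at least 5% of its cells. There Tssk1 gave 405, 408 and 586 UMIs per 1000 Prm1 UMIs, at least 13.4 times the highest of the other groups. Tssk4 gave 159.6, 184 and 247, Tssk2 327, 354 and 518, Tsks 154, 147 and 241 and Tssk3 67.7, 72.6 and 105. Tssk6 gave 41.0, 28.6 and 33.9, inside the range of the other groups. In CPM the cluster held Tssk1 at 450.4, 480.1 and 556, Tssk2 at 364, 416 and 491 and Tssk4 at 178, 217 and 234, against 45.6, 33.7 and 32.1 of Tssk6. In all 3 libraries Tssk6 alone of the 6 genes was not above the range of the other groups in it. How many of all genes were above their own range there was not counted, so the number of the 6 genes above it has no background.

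**Figure D3:**
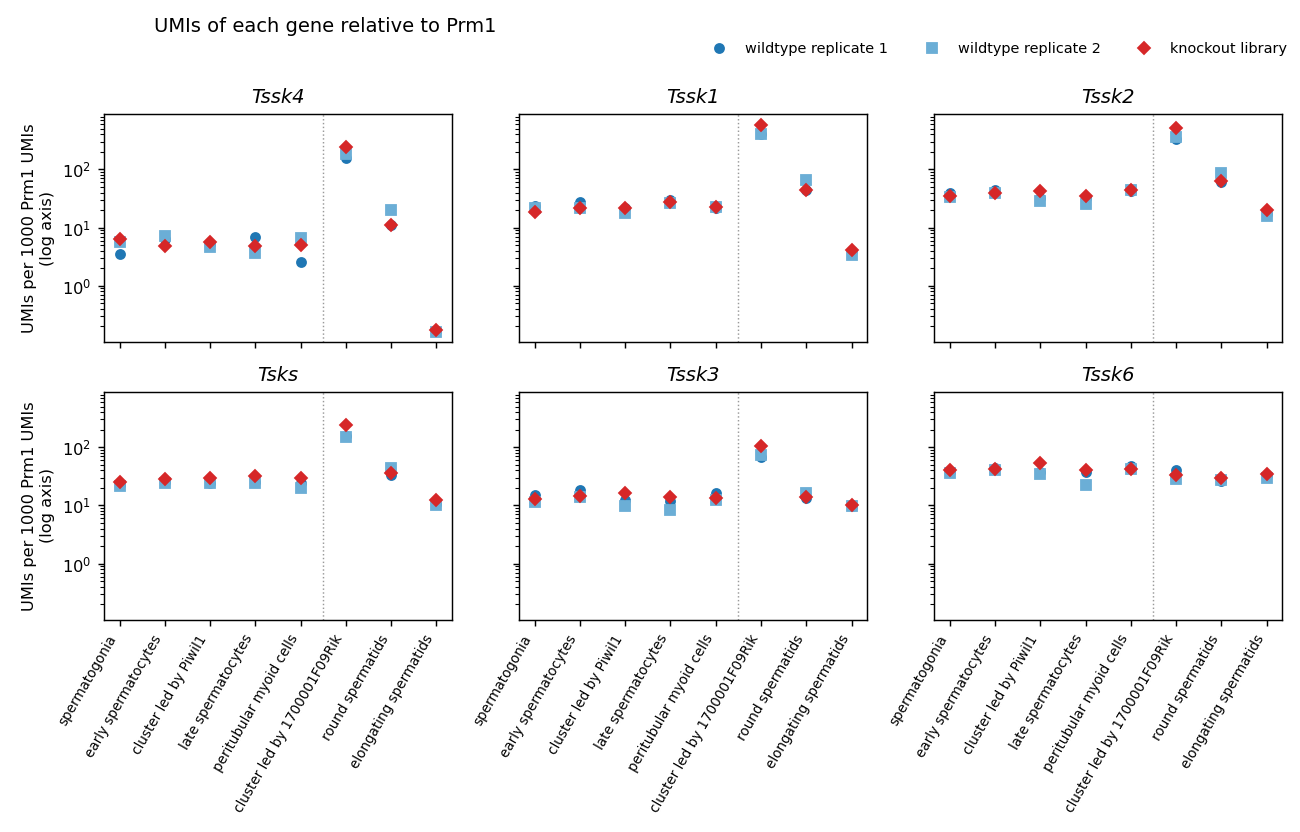
UMIs of each gene per 1000 Prm1 UMIs (log axis) in 8 groups of cells, 1 point per library; groups left of the dotted line should lack spermatid transcripts. Left of the line the points of each gene lie in a band, within which late spermatocytes and myoid cells differ for Tssk1 and Tssk2. In the cluster led by 1700001F09Rik all genes but Tssk6 stand above that band. In the spermatid classes Prm1 itself is expressed, which lowers the ratio.

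The share of cells with at least 1 UMI was taken after thinning each cell to 2000 UMIs, since the knockout library was deeper. Cells under that depth were left out, more of them in bin 2 than in any other bin. Bin 2 lost 25 of 228, 22 of 251 and 6 of 322 cells. Each other bin lost 0 to 6 cells in wildtype replicate 1, 0 to 19 in wildtype replicate 2 and 0 to 2 in the knockout library, and spermatogonia lost 0, 5 and 1. In bin 1, Tssk1 was seen in 86.1%, 85.3% and 82.1% of cells and Tssk6 in 30.1%, 22.7% and 20.8%. In bin 8 the pair had changed places, with Tssk1 in 13.8%, 7.49% and 10.97% of cells and Tssk6 in 100% of the 210, 267 and 319 cells. In spermatogonia, which should lack both, free RNA gave Tssk1 in 10.5%, 11% and 11.7% of cells and Tssk6 in 16.4%, 18.3% and 15.2%. The late Tssk1 share was near this background. Without thinning, Tssk1 had a UMI in 40.1%, 32.6% and 44.5% of cells of bin 8 and in 47.9%, 38.7% and 48.9% of spermatogonia, at a median of 7571, 6892.5 and 11150 UMIs in the former and 11270.0, 8447 and 14674 in the latter.

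Tssk4 was seen in 47.4%, 50.5% and 51.2% of thinned cells of bin 1 and in 0.8% to 7.41% from bin 3 on, against 3% to 5.65% in spermatogonia. Tssk2 was seen in 87.7% to 90.8% of cells in bin 1 and in 88.1% to 99.6% in the later bins, and Tsks rose from 66.9% to 67.6% in bin 1 to 88.1% to 90.3% in bin 8. Tssk2 and Tsks were found in the same thinned cell in 64.2%, 59.2% and 61.2% of cells of bin 1 and in 82.9%, 80.5% and 86.5% of bin 8. The kinase and its substrate were thus read together in most spermatids. Tssk1 and Tssk6 were found together in 23.7%, 20.05% and 17.5% of cells of bin 1, in 72.4%, 61.6% and 68.99% of bin 2, in 82.8%, 79.4% and 80.9% of bin 3, in 42.3%, 44.04% and 47.97% of bin 4 and in 13.8%, 7.49% and 10.97% of bin 8. The pair was thus read together from bin 2 to bin 4, with the highest share in bin 3.

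**Figure D4:**
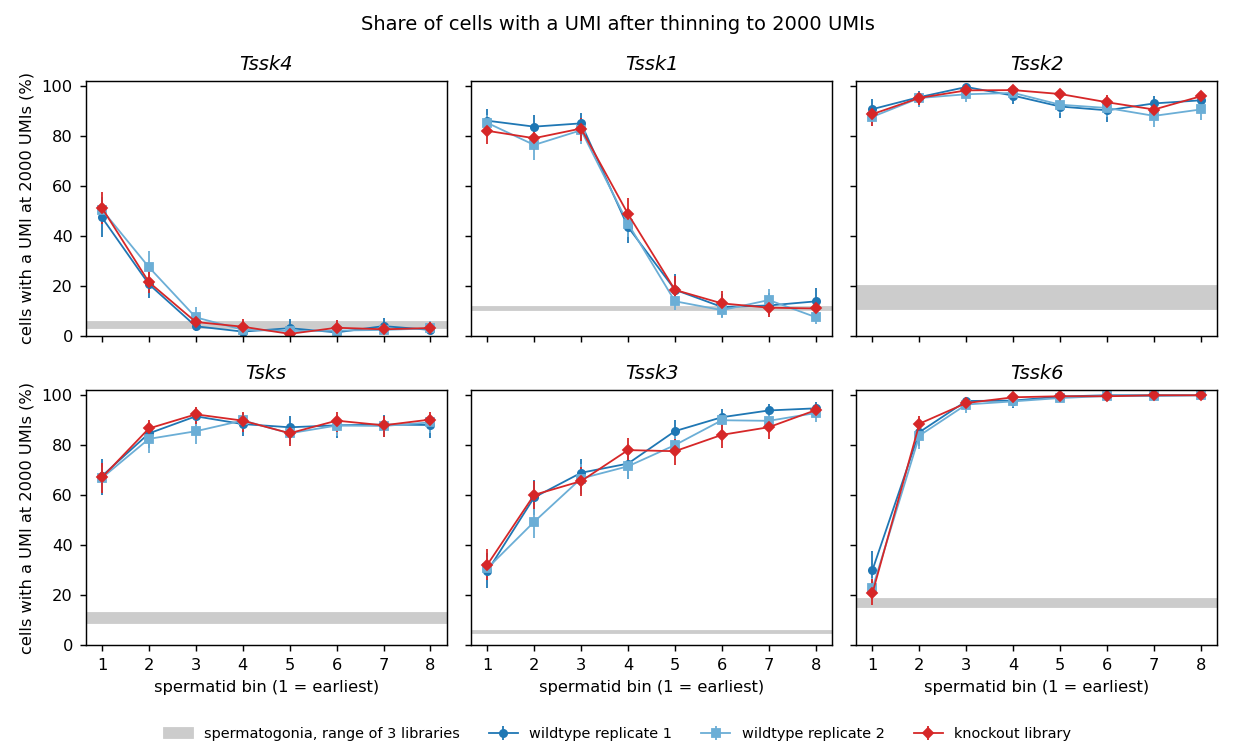
Share of cells with at least 1 UMI of each gene (percent) after thinning each cell to 2000 UMIs, by spermatid bin and library, with exact 95% binomial intervals; the grey band is the range of the same share in spermatogonia. Tssk1 falls from 82.1% to 86.1% of cells in bin 1 to the neighbourhood of the band by bin 6, and Tssk6 climbs from 20.8% to 30.1% of cells to 100% in bin 8.

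Tssk6 was higher still in cells outside the order. A low-UMI cluster led by 1700012A03Rik, with the sperm genes Smcp and Oaz3 among its 10 leading genes (148, 162 and 273 cells, median 1967.5, 1681.5 and 2395 UMIs), held Tssk6 at 13913, 11557 and 12004 CPM. Tssk3 stood there at 2477, 2757 and 1929 CPM and Tssk2 at 2055, 2082 and 1591 CPM. Both were above their bin 8 levels in each library. Tssk1 was at 227, 178 and 222 CPM, in CPM above its bin 8 level too. Cells of bin 8 were deeper, with medians of 7571, 6892.5 and 11150 UMIs, so these CPM values do not share a depth. Whether Tssk1 in this cluster was above the level of free RNA was not tested. The place of these cells in the order was not tested, because shallow clusters were kept out of it.

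None of the 6 genes passed the size rule when the knockout library was set against the wildtype libraries. The rule asked for a 2-fold difference from each wildtype library in the same direction, at least 2 times as large on the log2 scale as the difference between the wildtype libraries, with 20 CPM in 1 library. In round spermatids 0 of the 6 passed it, against 1.2% of 5431 genes tested. In elongating spermatids 0 of the 5 tested passed (Tssk4 stayed under 20 CPM), against 1.46% of 3086. Nor did any pass in bins 1 to 8, where 1.2%, 1.33%, 2.17%, 1.5%, 1.45%, 1.38%, 1.58% and 1.72% of the tested genes did. In spermatogonia, early spermatocytes and late spermatocytes, where 0.352%, 0.222% and 0.829% of genes passed, again none of the 5, 6 and 1 genes tested passed.

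In the round spermatid class the log2 ratio of knockout to wildtype mean, with 1 CPM added, was 0.45 for Tssk6, 0.31 for Tsks, 0.28 for Tssk3, 0.17 for Tssk2, 0.07 for Tssk1 and -0.05 for Tssk4, and the median over all tested genes was -0.06. Tssk6 stood at 600.3, 391 and 679 CPM there and Tsks at 734, 627 and 842 CPM, so the wildtype libraries themselves lay apart. So 5 of the 6 genes were above both wildtype libraries in this class, as were 27.6% of the genes tested, and none below both, as were 43.8%. Of the class, 179 of 379, 418 of 638 and 240 of 519 cells were in bin 1, so wildtype replicate 2 held the largest share of early cells, and the share in the knockout library was close to that in wildtype replicate 1. The part of this in the ratios was not tested. Within bin 1 the ratio of Tssk6 was 0.11 and within bin 2 it was 0.24. In elongating spermatids the ratios ran from -0.09 for Tssk3 to 0.14 for Tssk2, with a median of 0.03 over all genes. There Tssk2 and Tsks were above both wildtype libraries, as were 46.1% of genes, and Tssk3 below both, as were 35.9%.

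Small shifts that kept one side ran through the bins. Tsks was above both wildtype libraries in each of the 8 bins, by 0.03 to 0.27 on the log2 scale, as were 9.26% of the 2171 genes tested in all bins. Tssk2 was above both in 7 bins, by up to 0.29 in bin 5, where it stood at 1478, 1438 and 1788 CPM; 17% of the same genes were above in at least 7 bins. Tssk3 was below both in bins 4 to 7, with a log2 ratio of -0.26 in bin 6, where it stood at 1284, 1205 and 1042 CPM; 35.4% of the genes were below in at least 4 bins. Tssk6 was below both in bins 5 to 7, at 4391, 3665 and 3619.8 CPM in bin 6; from wildtype replicate 2 it differed there by -0.02, and 45.9% of the genes were below in at least 3 bins. Tssk1 was above both in bins 1 to 6, by up to 0.23 in bin 5 (26.1% of the genes were above in at least 6 bins). It was below both in bin 8, at levels close to those of spermatogonia. None of these shifts has a replicate check.

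**Figure D5:**
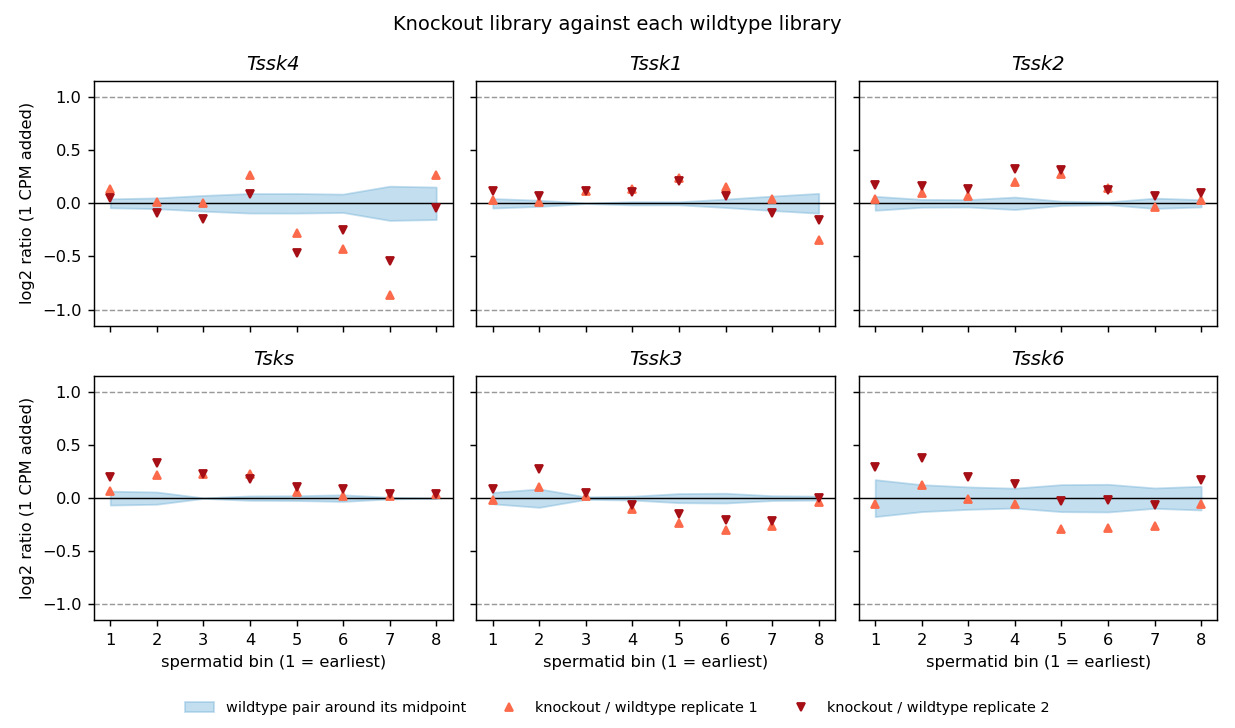
Log2 ratio (1 CPM added) of the knockout library to each wildtype library in 8 spermatid bins; the blue band is the distance between the wildtype libraries centred on 0, and the dashed lines mark a 2-fold difference. No point reaches the dashed lines, and the widest departure is that of Tssk4 in bin 7, where it stands at 7.29 to 14.1 CPM.

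Other measures moved with these bins. In bin 6 Tnp1, the transition protein gene that marks mid-elongation, was at 19072, 23204 and 28466 CPM and in bin 7 at 13611, 12982 and 17649.9 CPM, highest in the knockout library in both. The part of this difference in the values of Tssk2, Tssk3 and Tssk6 was not tested. The stage centres of the 6 genes in the knockout library differed from the wildtype mean by -0.12 for Tsks, -0.09 for Tssk4, -0.07 for Tssk3, -0.05 for Tssk6, -0.02 for Tssk2 and 0.00 for Tssk1 bins. Over all genes 90% of such differences lay between -0.19 and 0.19. A small cluster of elongating cells led by 1700018G05Rik, whose second-best list was that of Sertoli cells, gave 29, 20 and 77 cells, most of them in bins 2 and 3. The Sertoli markers summed to 128, 75.9 and 334 CPM in bin 3. Without that cluster the ratios in elongating spermatids were 0.15 for Tssk2, 0.14 for Tsks, 0.03 for Tssk1, 0.01 for Tssk6, -0.07 for Tssk3 and -0.10 for Tssk4.

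Of 10 genes associated with the kinases, all reached 50 CPM, 6 peaked in spermatogonia or spermatocytes, 2 in bins 1 or 2 and 2 in bins 3 to 8, against 67.3%, 21.2% and 11.5% of the 7120 genes that reached that level. Tssk5, a further family member, peaked in bin 1 at 77.1, 77.1 and 70.2 CPM and was at 1.16, 2.11 and 1.88 CPM in bin 2, so it fell before Tssk4. Tsacc, the co-chaperone of TSSK6, was at 557, 625 and 555 CPM in bin 1 and at 1644, 1767 and 1663 CPM in bin 4. In bin 8 it was still at 1404, 1406 and 1344 CPM. Odf2, the tail protein bound by TSSK4, rose from 1658, 1728 and 1697 CPM in bin 1 to 6117, 6511 and 6503 CPM in bin 8, where Tssk4 was near its level in spermatogonia. Crem, an activator of spermatid genes, peaked in bin 1 at 544, 594 and 535 CPM. Hsp90aa1, Hspa2, Ppp1cc and Spag16 peaked in late spermatocytes, H2afx in early spermatocytes and Hsp90ab1 in spermatogonia.

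Of 16 AMPK-related kinases 3 (Mark2, Mark3 and Melk) reached 50 CPM, against 7120 of all 32285 genes, a similar share. All 3 peaked before the spermatid stage, and the median of the 16 highest levels was 24.5 CPM, against highest wildtype means of 328 to 5619.5 CPM among the 6 genes. Of 10 chromatoid body proteins, which make up the granule from which the TSKS ring is thought to arise, 8 peaked before the spermatids and 2, Gtsf1 and Tdrd7, in bin 1. No gene of the associated and chromatoid body lists that was tested passed the size rule in round or elongating spermatids, nor did the 3 AMPK-related kinases tested in round spermatids; in elongating spermatids none of that list reached the level for the rule. The median log2 ratios in round spermatids were 0.22 for the 6 genes, -0.07 for 9 associated genes, -0.28 for 3 AMPK-related kinases and -0.14 for 7 chromatoid body proteins that were tested.

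Genes nearest to each member were sought by Pearson correlation of log2(CPM + 1) over 11 stages (spermatogonia, early and late spermatocytes and the 8 bins) among 6797 genes that reached 50 CPM, taking the lowest of the 3 libraries. The correlations are descriptions, since the stages share libraries and free RNA. Nearest to Tssk4 were Tmem190 (0.983), Tsga8 (0.982) and Hyal5 (0.979), and to Tssk1 Spaca7 (0.982), Gm31752 (0.981) and 4930567H17Rik (0.980). Nearest to Tssk2 were Dnajc5b (0.997), Actg2 (0.994) and Fam166a (0.994), and to Tsks 1700003F12Rik (0.998), Spert (0.997) and Pkib (0.996). For Tssk3 they were Ccdc91, 4933411K16Rik and Spata3 (0.999, 0.999 and 0.998), and for Tssk6 Gm614, Spem1 and Tppp2 (0.998, 0.998 and 0.997). Above 0.99 there were 39 genes for Tssk3, 33 for Tsks, 20 for Tssk6 and 10 for Tssk2, and none for Tssk1 or Tssk4. Among the 6 genes the closest pair was Tssk2 with Tsks, at 0.989 to 0.993 over the libraries, followed by Tssk3 with Tssk6 at 0.980 to 0.984. The neighbours Tssk1 and Tssk2 stood at 0.623 to 0.674, and Tssk4 with Tssk6 were the farthest apart at -0.02 to 0.01.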

How the data were processed

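The deposited values are raw UMI counts of genes in barcodes, and the file headers name Cell Ranger 4.0.0 as their source; the submitters' processing notes also name mm10 and Seurat 4.0.5. Barcodes with at least 1000 UMIs, 500 genes and at most 10% mitochondrial UMIs were kept. Scrublet's own threshold marked 1 barcode in all, so the top 8% of scores per library were left out. Cells were clustered without the 6 genes (scanpy 1.11.5, 2000 variable genes, 30 components, 15 neighbours, Leiden resolution 1, leidenalg 0.10.2), which gave 29 clusters. Names came from fixed markers and needed at least 3 of them, no more markers of another class than of their own among the 10 leading genes and, by a rule set after the data were seen, a mean marker score of 1; clusters whose median UMI total was under 3 times the lowest deposited total stayed out. Names are rebuilt and may differ from the study's. Spermatids were ordered by diffusion pseudotime (30 neighbours, 14 components), libraries weighted equally. UMIs were summed per library and stage as CPM. The size rule was tested on simulated data. The 6 genes were always named, with a list of 10 associated genes and the 3 nearest in pattern to each; further lists were counted. The members and lists were chosen with earlier results of these data known. Depths stand in the report; intervals cover counting error only, and mice are the samples, so wildtype SDs rest on 2. Alternatives covered doublets, denominators, depth, ordering, bins, the size rule and left-out libraries.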

Additional observations from a re-analysis of the deposited data

How the results depend on the processing

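The order Tssk4, Tssk1, Tssk2, Tsks, Tssk3, Tssk6 was the same under all 12 alternatives that gave one, but 40 of 72 recomputed stage centres moved by more than the wildtype SD (Tssk4 1.71 to 2.08, Tssk1 2.39 to 2.88, Tssk2 4.20 to 4.47, Tsks 4.68 to 4.86, Tssk3 5.33 to 5.82, Tssk6 5.48 to 5.99). The span of the stage centres, 4.02 bins, was 3.81 without the doublet filter, 3.87 without Prm1, Prm2, Tnp1 and Tnp2 in the total, 3.90 with the mean of each cell's own CPM, 3.97 with the 6 genes kept in clustering and ordering, 4.08 with a minimum of 5000 UMIs, 3.58 when ordered by marker share, 4.29 with 5 bins and 3.79 with 16 bins, the last chosen after seeing the data. Leaving out a wildtype library gave 4.01 to 4.03. The count of the 6 genes past the size rule was 0 in round and in elongating spermatids under every alternative run, including a 1.5-fold threshold, 5 CPM added and no filter on low CPM. Of 300 log2 ratios recomputed, 56 moved by more than the wildtype spread, and the largest in spermatids was 0.80 in size. No paired analysis was possible because the knockout library pools 2 mice and its number pairs it with no wildtype mouse. Depth limits Tssk4 and Tssk1 in late bins, where both are near their CPM in spermatogonia. Whether they are above the level of free RNA there was not tested, since spermatids express Prm1. With 1 knockout library, genotype and library cannot be told apart.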
